A study of Mus musculus with 34 samples.

Results

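The comparison described here is that of tumours from mice treated with doxorubicin (DRB) and tumours from untreated mice (NT), which asks how the chemotherapy altered gene expression when it was given alone. It rests on 8 of the 34 samples of the series, namely the libraries of the DRB mice 14, 18, 19 and 20 and of the NT mice 1, 5, 6 and 7, chosen by their labels. All 8 tumours grew from MOSJ-Dkk-1 cells, a single mouse osteochondral sarcoma line that carries red fluorescent protein and a lentiviral cassette from which the CMV promoter drives constant secretion of human Dkk-1. The cells were injected into a hindlimb of NU/J nude mice aged 2 months, which are Foxn1-/- and lack a thymus and therefore most T cells, but retain natural killer cells, macrophages and B cells. DRB was injected into the peritoneum every other day, and NT mice received saline. The tumours of the DkkMo group, whose mice received a morpholino directed against Dkk-1, and of the combination of DkkMo and DRB enter only as a second look at the drug.

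DRB is an anthracycline. It slides between the bases of DNA and traps topoisomerase II on cut DNA, and its quinone ring is reduced and reoxidised in cells with the release of reactive oxygen. Cells with intact p53 usually answer the resulting breaks by inducing genes for growth arrest and death, such as Cdkn1a and Mdm2. Export by P-glycoproteins and reduction by carbonyl reductases limit the amount of active drug, and long exposure can leave senescent cells that secrete growth factors, proteases and cytokines. In osteosarcoma DRB is one of the standard drugs. Neither Cdkn1a nor Trp53, nor Top2a, Gapdh, Dkk1 or Sox2, is among the genes analysed here, so the best known markers of the response could not be followed.

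Reads on the 12595 listed genes numbered 53.8 to 125 M (megareads) in the NT libraries and 85.3 to 106 M in the DRB libraries. At such depths counting error is small for all but the rarest genes if each read stems from a separate molecule, which was not tested. The libraries of a group nevertheless differed widely from one another. Spearman correlations across genes were 0.249 to 0.757 within NT, 0.543 to 0.640 within DRB and 0.371 to 0.652 between the groups, genes not being independent replicates. NT 5 and NT 7 lay at the extremes. The 29 measured genes for cytosolic ribosomal proteins took 41.4 reads per megaread (RPM) in NT 5 and 23008 in NT 7, against 1846 in NT 1, 342 in NT 6 and 688 to 6925 in the DRB libraries. Actb, the cytoskeletal actin, ran from 7.66 RPM in NT 6 to 7337 in NT 7 and from 235 to 1446 under DRB. Tissue had been fixed in formaldehyde before RNA was extracted, and no measure of RNA quality per sample was used here. The part of these differences in the results that follow was not tested.

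The plainest difference between the groups lay in the reads themselves. Trim12c and Trim30a, neighbouring members of a family of cytoplasmic TRIM proteins of which Trim30a is induced by interferon, held the most reads in each of the 4 DRB libraries and in NT 6. In the other untreated tumours Gm10801 (NT 1), Klhl1 (NT 5) and Gzmb (NT 7) came first. Trim12c took 4.16%, 0.642%, 14.1% and 1.55% of the reads in NT 1, 5, 6 and 7, and 19.1%, 30.9%, 26.2% and 16.7% in DRB 14, 18, 19 and 20. Every DRB library was thus above every NT library in its share, although the log2 values of both genes overlapped after each library was centred on its median. The shares had means of 23.2% ± 6.49 and 5.12% ± 6.20 (SD, n = 4 each; exact permutation p = 0.029, two-sided, the smallest that 4 against 4 can give). The adjusted p over the 29 library measures tested was 0.166 by the same exact permutation test. The share of a single gene was not among the measures set beforehand, and Trim12c led the pooled reads of these same libraries. Its p values therefore serve as a description. Together the pair took 33.5% to 61.7% of the reads under DRB and 1.25% to 28.3% in NT.

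Both genes lie on the minus strand of chromosome 7 in GRCm38, Trim12c at chr7:104338754-104353362 and Trim30a at chr7:104409025-104465193, 55.7 kb apart. Their read counts were almost equal in each library. Trim12c exceeded Trim30a by 7026, 24411, 8150 and 26249 reads in NT 1, 5, 6 and 7, and by 6954, 1578 and 494 reads in DRB 14, 18 and 20, whereas in DRB 19 the gap was -2699 reads. In the 4 DRB libraries the gap was at most 0.0354% of the reads of Trim30a, and in NT 5 it was 5.15%. The values of one gene can therefore not be told apart from those of the other. The longest stretch that the annotated transcripts Trim12c-201 (3740 bases) and Trim30a-201 (3771 bases) have in common is 47 bases in their second exon, within the coding sequence. Over the 420 coding bases of that exon, 340 (81.0%) are identical. Other transcripts of the 2 genes are not described here, so a longer match between the genes is possible. The stretch is given here in capitals with the 20 bases on either side in lower case, 5′ to 3′ on the minus strand, from GENCODE transcripts of GRCm38 (Trim12c at chr7:104348086-104348172, Trim30a at chr7:104435740-104435826), because it is the longest match between these transcripts.
Trim12c: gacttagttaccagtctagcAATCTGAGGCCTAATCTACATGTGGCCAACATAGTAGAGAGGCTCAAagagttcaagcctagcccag
Trim30a: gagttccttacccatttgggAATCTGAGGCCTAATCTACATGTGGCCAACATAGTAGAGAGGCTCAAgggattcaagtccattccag
The stretch shared by these 2 transcripts is shorter than a read, which was 150 bases long. How reads that fit several genes were counted is not given in the sources used here, and the cause of the equal counts was not tested. Trim30d and Trim34a, TRIM genes singled out after their values were seen, did not follow the pair, and other TRIM genes are not described here. Trim30d had normalised counts of 473 to 7163 in NT and 201 to 2503 under DRB, and Trim34a 82.0 to 4199 and 2.31 to 130, so that both overlapped between the groups.

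**Figure D1:**
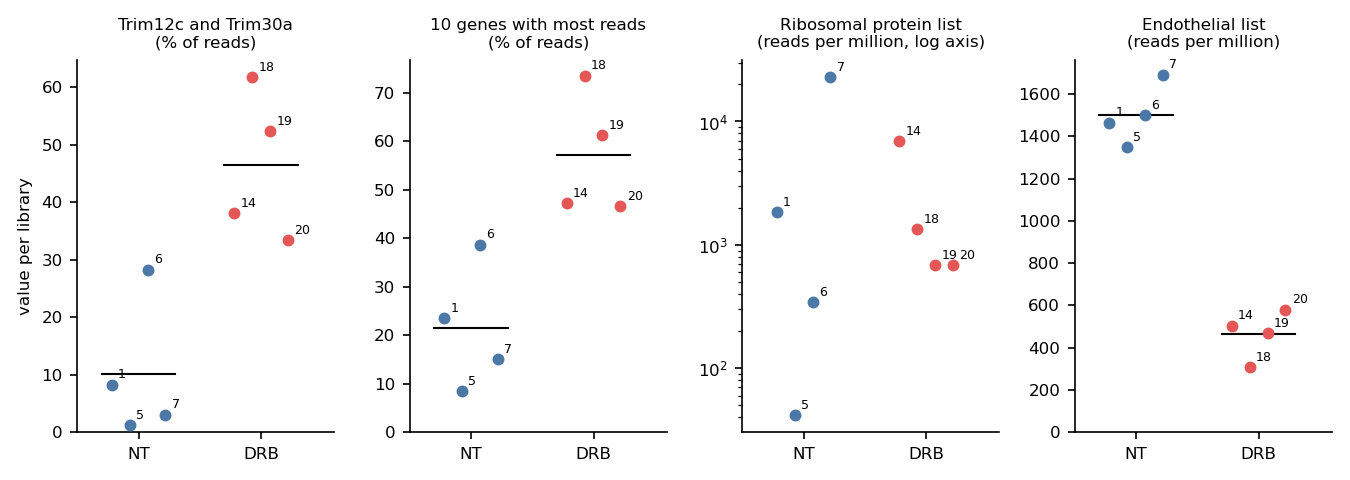
Each point is 1 library, numbered by mouse, with NT in blue, DRB in red and the group mean as a bar where the axis is linear: the share of reads on Trim12c and Trim30a, the share on the 10 genes with most reads, RPM on the ribosomal protein list (log axis) and RPM on the endothelial list. The pair takes at least 33.5% in the 4 DRB libraries and at most 28.3% in the 4 NT libraries, while the ribosomal list spans 41.4 to 23008 within NT.

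The 10 genes with most reads took 46.7% to 73.5% of the DRB reads and 8.51% to 38.7% of the NT reads (exact permutation p = 0.029, adjusted 0.166). With the pair taken out of the total the groups overlapped, at 16.7% to 32.0% and 7.86% to 17.8% (exact permutation p = 0.0571). The unnamed gene model Gm10801 took 4.48%, 0.992%, 2.36% and 0.176% of the reads in NT 1, 5, 6 and 7 and 0.626%, 4.32%, 2.66% and 2.77% in DRB 14, 18, 19 and 20, a full overlap, and Gm10800 had nearly the same shares. Over the pooled reads of a group, 5 of the 10 leading genes were shared, 50% of either list. Snd1, a nuclease of the RNA-silencing complex, and Tle7, a member of the Groucho family of co-repressors, were among the leaders only of the pooled DRB reads, but their shares in NT 1, 0.548% and 0.603%, were above those in DRB 18 (0.198% each) and DRB 19 (0.238% and 0.294%). The pooled NT list held Spp1, the bone matrix protein osteopontin, Gzmb, a cytotoxic protease of natural killer cells, the receptor tyrosine kinase Met and the nuclear RNA Malat1. The shares of Gzmb, Spp1 and Malat1 were highest in NT 7, at 2.94%, 2.32% and 1.48% of the reads. In NT 1, 5 and 6 Gzmb took 0.203%, 0.0217% and 0.0892%.

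Of 12578 genes tested with limma, 0 were higher and 0 lower under DRB when both an adjusted p under 0.05 and more than 1.5-fold were required, a share of 0% in either direction. Without adjustment, 731 genes (5.81%) had p below 0.05. Centring each library on its median also gave 0 and 0 genes, with 614 (4.88%) at unadjusted p below 0.05. Limma voom on the reads recovered from the deposited values gave 0 and 0 genes and 854 at unadjusted p below 0.05. The median standard error of a difference was 1.03 on the log2 scale, and the median 95% interval reached 2.24 to either side, which is 4.72-fold. A change of several fold in a single gene was therefore not detectable for most genes at the spread between these tumours. The standard deviation within NT was larger than within DRB for 57.8% of genes. These p values measure the spread between tumours of separate mice.

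The direction of the whole comparison depended on the scaling. As deposited, 7554 genes (60.1%) had a higher mean under DRB, and the median difference of all genes was 0.28 on the log2 scale. After centring, 6092 genes (48.4%) did, with a median of -0.04. The groups did not overlap for 375 genes with higher values under DRB (2.98%) and 137 with lower values (1.09%) as deposited, for 273 (2.17%) and 225 (1.79%) after centring, and for 171 (1.36%) and 78 (0.62%) on both scales.

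The genes in the next paragraphs were chosen after their values were seen, and they serve as a description. The rule took those with the smallest unadjusted p among named genes whose groups did not overlap on either scale. Spaca1, which passed only in some alternative fits, Gprc6a and the neighbours of Pla1a were added outside that rule. Values are normalised read counts, reads divided by the size factor of the library, in the order NT 1, 5, 6 and 7 and then DRB 14, 18, 19 and 20. Differences are DRB minus NT on the deposited log2 scale, with the standard error (SE).

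Pla1a came first. It encodes a secreted phospholipase that cleaves phosphatidylserine, and lies on the minus strand at chr16:38396117-38433145 in GRCm38. Its counts were 13848, 1038, 1438 and 32004 in NT, and 353058, 69861, 230222 and 1022250 under DRB. The lowest DRB tumour was above the highest NT tumour, although each group spanned more than 10-fold. The difference was 5.67 (SE 1.10, 95% interval 3.29 to 8.06, unadjusted p = 2.12e-04, adjusted p = 0.843 from limma), and 5.35 after centring (adjusted p = 0.0576). Leaving out 1 tumour at a time kept it between 4.95 and 6.53. Without NT 7 it was the only gene to pass, at 6.53 (adjusted p = 0.0159). Of the 19 genes tested within 1500 kb on either side, only Pla1a did not overlap between the groups, but both flanking genes also had higher means under DRB. Popdc2, a cAMP-binding protein of muscle membranes, differed by 4.38 (SE 1.52, unadjusted p = 0.0132) and Adprh, an ADP-ribosylarginine hydrolase, by 2.55 (SE 0.76, unadjusted p = 0.00549). Farther along, Igsf11, an adhesion molecule, and the antisense gene Gm15802, which overlaps it and cannot be told apart from it without strand, differed by 2.60 (SE 0.88) and 2.65 (SE 0.90). B4galt4, which lies between Pla1a and these 2 genes, was lower, at -2.30 (SE 0.98, unadjusted p = 0.0358 from limma). The 18 neighbours had a median centred difference of 0.30, with 10 of them higher. Iqcb1 and Eaf2, described below and also without overlap, lie on the same chromosome just outside the 1500 kb.

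Several other genes had far higher counts under DRB. Spaca1, a membrane protein of the sperm acrosome, had 391, 79.7, 455 and 2150 in NT and 202479, 1922, 15483 and 82336 under DRB. DRB 18 lay below NT 7 here, so the groups overlapped as deposited, and did not after centring (5.43, SE 1.29, and 5.11 centred). Hspb7, a small heat shock protein of striated muscle, had 1944, 128, 252 and 6697 in NT and 62730, 16311, 8610 and 28961 under DRB (4.36, SE 1.06). Mgat4a, a glycosyltransferase that branches N-glycans, had 7153, 2802, 6357 and 37935 in NT and 271417, 64721, 49546 and 50996 under DRB (3.26, SE 0.84). DRB 14 stood well above the other treated tumours in Mgat4a, and NT 7 was close to the lowest of them. Ccdc169 had 659 to 9035 in NT and 14427 to 92827 under DRB (3.91, SE 0.93).

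In Tcaf1 and Akr1cl the untreated tumours had few or no reads. Tcaf1, a partner of the cold-sensing channel TRPM8, had counts of 0, 50.5, 0 and 1.25 in NT and 1043, 2850, 809 and 383 under DRB (3.54, SE 0.85). Akr1cl, of the aldo-keto reductase family, had 0.911, 22.3, 0 and 3.75 in NT and 1368, 418, 357 and 508 under DRB (2.89, SE 0.72). The deposited scale compresses differences at such low counts. Iqcb1, a protein of the primary cilium, and Eaf2, a factor of transcription elongation, had 3.62 to 397 and 7.24 to 1328 in NT and 2470 to 13619 and 4353 to 13639 under DRB (4.30, SE 1.02, and 3.80, SE 0.97). Iqcb1 (plus strand, chr16:36828385-36872721) lies wholly within the span of Eaf2 (minus strand, chr16:36792884-36875003), and since the strandedness of the counting is not given, reads of the 2 genes cannot be told apart.

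Lower counts under DRB were chosen by the same rule. Defb42, a beta-defensin of the epididymis, had 7587, 2448, 14292 and 2303 in NT and 925, 0, 30.0 and 2.05 under DRB (-4.80, SE 1.15, unadjusted p = 0.00116, adjusted p = 0.843 from limma). Defb35 of the same family had 381 to 2457 in NT and 1.07 to 31.7 under DRB (-3.34, SE 0.84). Hoxb4, a homeobox factor of stem and progenitor cells, had 3204, 1083, 1993 and 997 in NT and 2.31, 4.75, 0 and 276 under DRB (-3.74, SE 0.97). Arhgap25, which switches off Rac in blood cells, had 9872, 8803, 18547 and 22895 in NT and 3216, 695, 2776 and 1794 under DRB (-2.80, SE 0.72). All 4 treated tumours lay below the lowest untreated one, as for the other genes of this set.

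Fgf23, the phosphate-lowering hormone made by osteocytes and osteoblasts, was nearly absent from the treated tumours. Its reads were 37, 3763, 3116 and 1253 in NT and 0, 1, 0 and 0 under DRB, with 40.4 to 63.7 M reads outside Trim12c and Trim30a in the treated and 49.4 to 121 M in the untreated libraries (-3.71, SE 0.99). St6galnac6, a sialyltransferase, had counts of 459 to 5669 in NT and 385, 0, 27.9 and 0 under DRB (-3.99, SE 1.10). Gprc6a, a receptor for basic amino acids and divalent cations, was added outside the rule. It had 2227 to 9421 in NT and 52.2 to 446 under DRB (-3.44, SE 0.96). The odorant receptors Olfr971 (-3.04) and Olfr1380 (-3.16) completed the set, while the 293 genes for odorant and vomeronasal receptors together had a median difference of 0.21 (-0.12 centred), near that of all genes. As a share of reads these receptor genes took 2526 to 13956 RPM in NT and 1901 to 4927 under DRB (exact permutation p = 0.114). In these bulk samples fewer cells of a type and less RNA per cell cannot be told apart. Whether the reads on the genes of this set came from expressed RNA was not tested. None of the genes named above had an adjusted p below 0.843 in limma on the deposited scale.

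**Figure D2:**
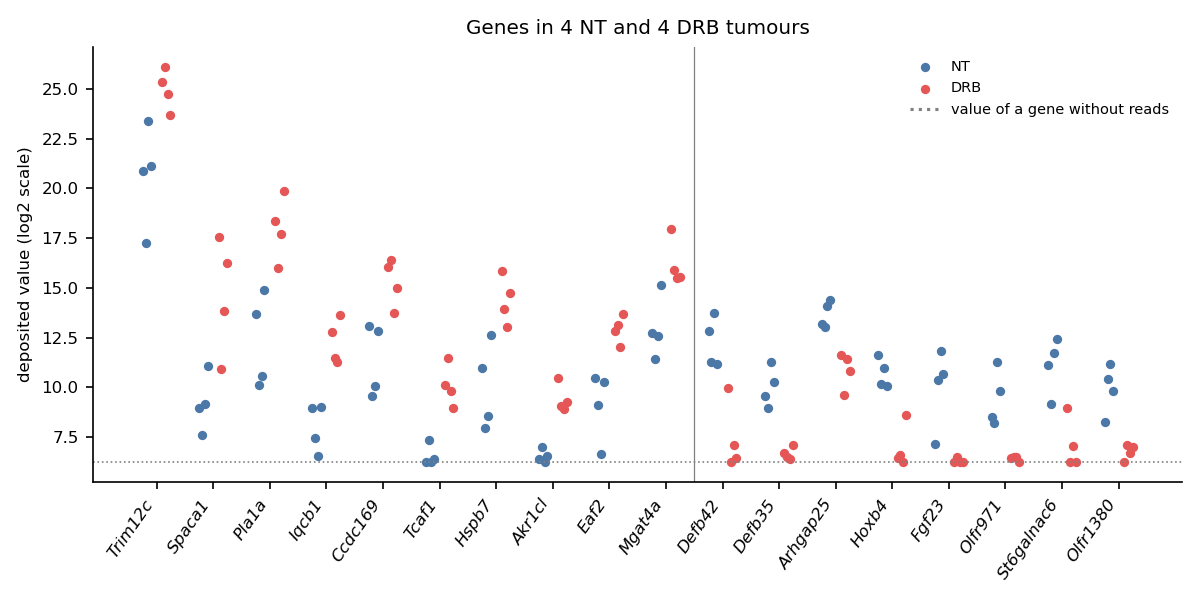
Deposited values (log2 scale) of Trim12c, Spaca1 and the 8 higher and 8 lower genes with the smallest unadjusted p among those without overlap, in the 4 NT (blue) and 4 DRB (red) libraries, with the value of a gene without reads as a dotted line. Groups are separated for each gene but Spaca1, whose lowest red point lies just under the highest blue one, and several lower genes reach the dotted line in DRB tumours.

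The gene lists that follow were described by counts and by the median difference, against medians of 0.28 as deposited and -0.04 centred over all genes tested. Among the members named below, Abcb1a, Chek2, Casp9, Gsr, Timp2, Igfbp4, Igfbp7, Fbn1 and Axin2 were singled out after their values were seen. No list had a gene that passed the limma threshold. In the 17 lists for cell processes 248 genes were tested, 18 of them (7.26%) with unadjusted p below 0.05, against 5.81% of all genes. Leaving out 1 tumour at a time turned the sign of the median in 11 of the 17. It kept its sign for DNA damage, secreted factors of senescent cells, chaperones, collagens and matrix, Wnt, and the genes that the study discusses.

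For the targets and handling of the drug, 12 of 20 listed genes were measured, 5 with a higher mean under DRB, and the median was -0.16 (-0.49 centred). Top2b, the isoform of topoisomerase II found in non-dividing cells, had counts of 2046, 79.4, 27024 and 48574 in NT and 60963, 50213, 5810 and 1924 under DRB, a full overlap (1.49, SE 1.61). Abcb1a, a P-glycoprotein that exports DRB, had 498 to 1481 in NT and 2519, 2978, 4457 and 362 under DRB. It was above the whole NT range in DRB 14, 18 and 19 and below it in DRB 20 (0.83, SE 0.95). Abcb4, a phospholipid transporter of the same family, differed by -0.55 (SE 0.88).

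The p53 targets had a median close to that of all genes. Of 36 listed, 16 were measured, 8 higher and 8 lower, with a median of 0.12 that became -0.20 after centring. Mdm2, the ubiquitin ligase that p53 induces against itself, had counts of 8780, 574, 7936 and 118584 in NT and 95449, 294, 14844 and 492 under DRB (-0.99, SE 1.77, 95% interval -4.82 to 2.85). Ccng1, cyclin G1, had 3318, 0.656, 3.62 and 145487 in NT and 10140, 28591, 5613 and 200 under DRB (1.77, SE 2.12). Both genes ran over more than 2 orders of magnitude within a group. Of the DNA damage response, 20 of 29 genes were measured, 11 of them higher, with a median of 0.57 (0.25 centred). Xrcc4, a subunit of the end-joining ligase, was steady at 9450 to 23594 in NT and 8867 to 15939 under DRB (-0.10, SE 0.58). Prkdc, the DNA-dependent protein kinase, differed by -0.78 (SE 0.74). Chek2, the checkpoint kinase that signals breaks to p53, was the only one of the 20 without overlap, at 7752, 6914, 10496 and 9606 in NT and 6255, 5183, 2767 and 3674 under DRB (-0.98, SE 0.62, unadjusted p = 0.140), and its groups overlapped after centring.

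Division genes gave low medians with wide spreads. Mitosis genes had a median of -0.28 (11 of 32 measured, 5 higher) and replication genes one of -0.19 (13 of 37, 5 higher), and the signs of both medians turned without NT 7 and in several other settings. Mki67, the proliferation marker, had 284, 30.5, 308 and 17694 in NT and 2164, 1706, 16.1 and 124 under DRB (-0.47, SE 1.56). Tpx2, a spindle assembly factor, differed by -1.13 (SE 0.97), and Rfc1 and Rfc2, which load the replication clamp, by -0.69 (SE 1.04) and 0.27 (SE 1.64).

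Among 12 measured genes of apoptosis, of 35 listed, 5 were higher, the median was -0.37 (-0.70 centred) and 4 had an unadjusted p below 0.05. Casp9, the caspase activated by cytochrome c on the mitochondrial route to death, was the one gene without overlap. It had 476, 535, 1893 and 3710 in NT and 60.0, 2.37, 8.59 and 84.0 under DRB (-3.25, SE 0.96, unadjusted p = 0.00507, adjusted p = 0.843 from limma; -3.58 centred). Casp8, which serves death receptors, differed by -0.23 (SE 0.84) and Bcl2, the inhibitor of the mitochondrial route, by 0.46 (SE 1.03), both with full overlap.

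Oxidant defence held genes on either side. Gsta4, a glutathione transferase that detoxifies the lipid aldehyde 4-hydroxynonenal, had 21746, 2748, 3027 and 23027 in NT and 197002, 47994, 23351 and 37131 under DRB (2.70, SE 0.90, unadjusted p = 0.0106). DRB 19 was above NT 7 by a small margin only. Gsr, glutathione reductase, had 1012, 28.2, 430 and 5518 in NT and 16.1, 11.9, 19.3 and 25.6 under DRB (-2.76, SE 1.07, unadjusted p = 0.0234). All 10 measured genes of the list, of 34, had a median of 0.38 (0.05 centred), with 6 higher. Slc7a11, the cystine importer, differed by 0.44 (SE 0.73). Aldehyde dehydrogenases, of which Aldh1a1 is a marker of drug-tolerant and stem-like tumour cells, had a median of -0.05 (12 of 18 measured, 5 higher). Aldh1a1 itself had 2123, 5342, 1705 and 3921 in NT and 5159, 13627, 3052 and 14521 under DRB, higher in 2 tumours and within the NT range in the others (1.30, SE 0.76, unadjusted p = 0.114).

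**Figure D3:**
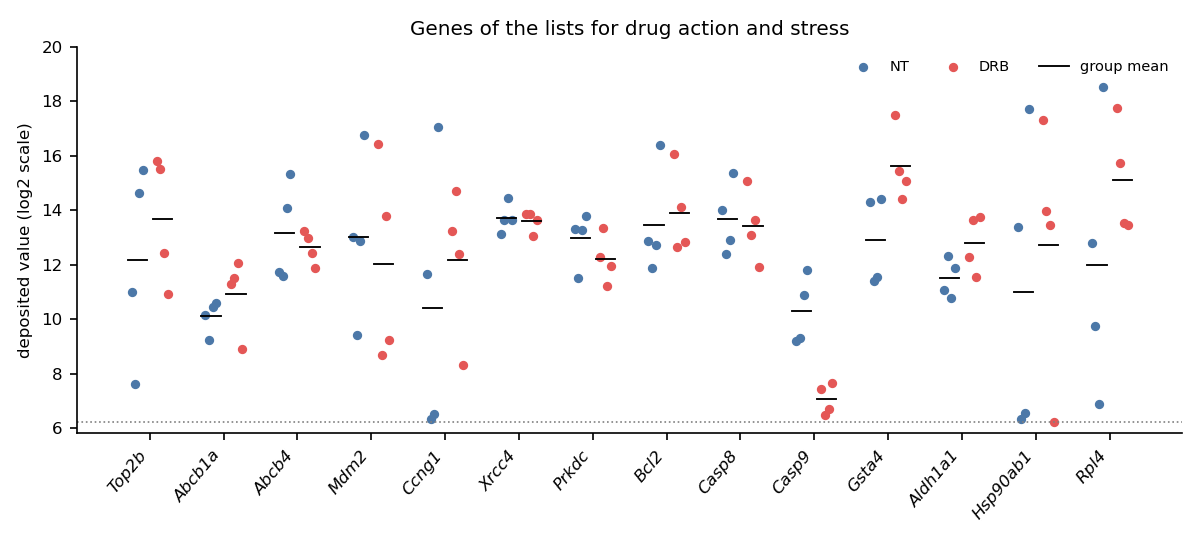
Deposited values (log2 scale) of 14 genes for drug handling, p53 response, repair, apoptosis, oxidant defence, chaperones and ribosomes in the 4 NT (blue) and 4 DRB (red) libraries, with group means as bars and the value of a gene without reads as a dotted line. Only Casp9 (lower) and Gsta4 (higher) are separated between the groups, and Ccng1 and Hsp90ab1 range from the dotted line or near it to among the highest values within a group.

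Secreted factors of senescent cells had a median of 1.56 as deposited and 1.23 centred, which ran from 0.81 to 1.78 with 1 tumour left out. Only 9 of 32 were measured, 6 of them higher. Their summed level overlapped between the groups, at 18.0 to 125 RPM in NT and 37.5 to 143 under DRB. In the combination against DkkMo the median of the list was -0.18. In 4 of the 9 the groups did not overlap, with higher values under DRB, as for 2.98% of all genes. Timp2, an inhibitor of matrix metalloproteinases, had 6.38, 2.95, 0 and 8.74 in NT and 427, 987, 513 and 158 under DRB (2.62, SE 0.69, unadjusted p = 0.00237). Hgf, the ligand of Met, had 1081, 124, 6.04 and 1469 in NT and 9136, 2172, 1771 and 1586 under DRB (2.60, SE 1.14, unadjusted p = 0.0407). DRB 20 was only just above NT 7 in this gene. Igfbp4 and Igfbp7, binding proteins of insulin-like growth factors, had 0 to 37.4 and 120 to 546 in NT and 113 to 5660 and 739 to 2397 under DRB (2.61, SE 1.02, and 1.56, SE 0.95). Igfbp4 overlapped after centring. Cdkn2a, the senescence-linked inhibitor of cyclin-dependent kinases, was placed in the same list and had 0 to 3197 in NT and 11.3 to 25164 under DRB (1.69, SE 1.69).

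Chaperones (median 1.16, 9 of 26 measured, 5 higher) and ribosomal proteins (1.08, 29 of 49, 21 higher) had medians above that of all genes, but with 1 tumour left out the medians ran from 0.07 to 3.09 and from -0.18 to 3.26. These lists also separated the libraries of 1 group. Hsp90ab1, a cytosolic chaperone, had 11398, 0.656, 4.83 and 230750 in NT and 174268, 17118, 11827 and 0 under DRB (1.73, SE 2.60). Rpl4 had 7391, 763, 18.1 and 399473 in NT and 234993, 58135, 12400 and 11789 under DRB (3.13, SE 1.95). NT 7 was highest in both and DRB 14 came next. The ribosomal median turned negative without DRB 14.

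Interferon-stimulated genes had a median of -0.29 (17 of 37 measured, 7 higher), which ran from -0.55 to 0.51 with 1 tumour left out. Trim30a, whose reads are described above, was the only one without overlap, and it overlapped after centring. Parp14, a mono-ADP-ribosyltransferase of the interferon response, differed by 0.42 (SE 0.78). Nuclear genes of the respiratory chain had a median of -0.68 (8 of 32, 4 higher), and glycolysis genes one of 0.57 (10 of 25, 7 higher), with Hk2, hexokinase 2, at 0.71 (SE 0.59). With 1 tumour left out these medians ran from -1.30 to 0.74 and from -0.19 to 1.06.

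Collagens and matrix had a median of 0.78 (20 of 26 measured, 15 higher; 0.45 centred). Fbn1, fibrillin 1, had 1011, 802, 68.8 and 330 in NT and 1271, 3622, 1526 and 1201 under DRB (1.72, SE 0.98). The abundant collagens Col12a1 (0.12, SE 0.97) and Col11a1 (0.01, SE 0.72) had 95% intervals of -1.98 to 2.21 and -1.55 to 1.56. For Wnt, the pathway that secreted Dkk-1 blocks at its co-receptor, 19 of 33 genes were measured and 11 were higher, with a median of 0.24 that was -0.09 after centring. Axin2, a feedback inhibitor and the most used Wnt target, had 67.4, 106, 16.9 and 62.4 in NT and 182, 679, 161 and 308 under DRB (1.26, SE 0.73, unadjusted p = 0.110), and overlapped after centring. Lef1 (0.65, SE 0.83) and Znrf3 (1.13, SE 0.73) overlapped on both scales.

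Of the 26 genes that the study discusses, 24 were measured and 22 had a higher mean, with a median of 1.27 (0.94 centred). They were chosen by the study on samples that include these, so their direction is not independent evidence. Dpyd, which breaks down pyrimidines and the drug fluorouracil, had 22298, 17244, 12123 and 21629 in NT and 42723, 48125, 34754 and 33556 under DRB, each group within 2-fold (1.14, SE 0.52, unadjusted p = 0.0496). Its groups overlapped after centring. Hsd17b4, an enzyme of peroxisomal lipid oxidation, and the histone methyltransferases Setd7 and Nsd1 differed by 1.78 (SE 1.55), 0.83 (SE 1.44) and 0.06, the last with counts of 113 to 62423 in NT and 1298 to 46486 under DRB, and Arpc2, a subunit of the actin-branching complex, by 0.77 (SE 1.74).

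**Figure D4:**
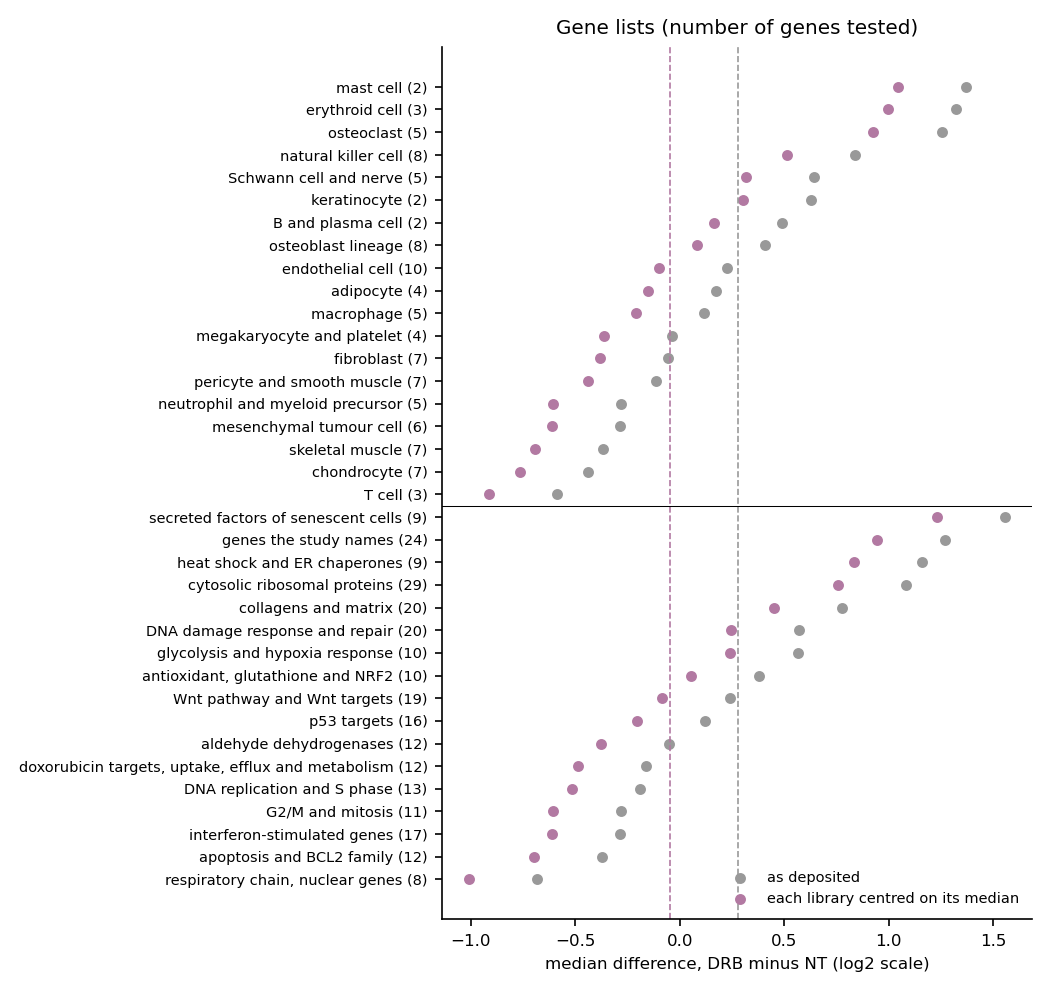
Median difference (DRB minus NT, log2 scale) of each gene list, as deposited (grey) and with each library centred on its median (purple), cell type markers above the horizontal line and process lists below it, with dashed lines at the medians of all genes, 0.28 and -0.04. Secreted factors of senescent cells lie at 1.56 and 1.23, the p53 targets at 0.12 and -0.20, and no list holds a gene past the limma threshold.

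Markers were used to check the tissue. Osteoblast markers were led by Spp1, at 133891, 82.7, 97844 and 3620288 in NT and 1703614, 370344, 120488 and 98880 under DRB, and Runx2, the master factor of the bone lineage, had 3660 to 54913 in NT and 8171 to 13104 under DRB. Of the markers, 8 of 15 for osteoblasts and 7 of 12 for chondrocytes were measured. Vim, a mesenchymal marker, ranged from 139 to 41309 in NT and from 332 to 51626 under DRB. Over all 19 marker lists, 99 genes were tested, of which 7 (7.07%, against 5.81% of all genes) had an unadjusted p below 0.05. The groups did not overlap for 5 higher genes and 1 lower gene, against 2.98% and 1.09% of all genes. One of them was Tnfrsf11a, the osteoclast receptor RANK, at 777, 554, 73.7 and 1099 in NT and 6850, 11230, 2738 and 2004 under DRB (2.89, SE 0.95, unadjusted p = 0.0100). Nfatc1, which RANK induces, overlapped (1.29, SE 1.15). Of the osteoclast list 5 of 10 genes were measured, 3 higher and 2 lower, and its summed level was 141 RPM ± 54.2 under DRB and 148 ± 83.1 in NT (SD, n = 4 each; exact permutation p = 0.886). The others were Slc4a1, Mylk, Pvalb and Plin1, and Col9a2 was lower.

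As shares of reads, 3 marker lists separated the groups. The 10 measured endothelial genes together took 1465, 1349, 1499 and 1692 RPM in NT and 505, 310, 469 and 580 under DRB (exact permutation p = 0.029, adjusted 0.166 over 29 measures). The fibroblast list took 314 to 759 in NT and 139 to 184 under DRB, and the muscle list 153 to 467 and 22.2 to 111, with the same exact permutation p values. The share on Trim12c and Trim30a moved with these results, since a larger share on the pair leaves less for other genes. Per megaread outside the pair, the endothelial list was still apart, at 1366 to 2089 in NT and 810 to 985 under DRB, as was the fibroblast list, at 438 to 783 and 250 to 372, whereas the muscle list overlapped (exact permutation p = 0.200). No single endothelial gene was apart. Only 5 of the 10 had a lower mean, and the list was carried by Flt1, a receptor of vascular endothelial growth factor with 41.9% of its reads, and Pecam1, an adhesion molecule with 37.3%. Flt1 had 1062, 886, 1243 and 320 RPM outside the pair in NT and 100.1, 388, 451 and 359 under DRB. Pecam1 had 179, 155, 90.8 and 1330 in NT and 600, 175, 135 and 288 under DRB, so NT 7 was the highest library in this gene and the lowest of NT in Flt1. Cdh5 and Kdr, which define endothelium, had at most 20.3 and 11.7. On the log2 scale, where each gene counts alike, the list's median was 0.23 as deposited and -0.10 centred. In the fibroblast list, too, no gene of the 7 measured was apart. Thy1, a surface glycoprotein, held 46.3% of its reads, at 96.3, 0.169, 5.49 and 739 RPM outside the pair in NT and 179, 130, 0.337 and 0 under DRB, and the list's log2 median was -0.06 (-0.38 centred).

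The drug was also given on top of DkkMo, and the comparison of the combination with DkkMo alone (4 tumours each, sharing no sample with DRB against NT) measured it a second time. Listed genes held 26.9 to 52.1 M reads under DkkMo and 28.3 to 41.1 M under the combination. Odorant and vomeronasal receptor genes took 11062 to 14305 and 13594 to 14627 RPM there, against 2526 to 13956 in NT and 1901 to 4927 under DRB. The part of these differences in what follows was not tested. In limma the combination against DkkMo was fitted with all 16 tumour libraries, so its p values also rest on the spread within NT and DRB. It had 0 higher and 0 lower genes, with 150 (1.19%) at unadjusted p below 0.05. DRB against NT in the same 16-library fit had 0 and 0 genes, with 1497 (11.9%) at unadjusted p below 0.05. The test of the difference between the drug's effects with and without DkkMo likewise gave 0 and 0 genes, with 853 (6.78%) at unadjusted p below 0.05.

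The high share of Trim12c was not found there. It was 0.534% to 2.23% of the reads under DkkMo and 0.663% to 1.26% under the combination (exact permutation p = 1). The difference of Trim12c on the log2 scale was 0.17 with DkkMo against 4.32 without it, and the difference between those was -4.15 (SE 1.20, adjusted p = 0.674 from limma). Pla1a had counts of 61.6 to 6956 under DkkMo and 692 to 825 under the combination, a difference of -0.10 against 5.67 (adjusted p of the difference = 0.636 from limma). The endothelial list took 1222 to 1674 RPM under DkkMo and 1427 to 1952 under the combination, where the mean was the higher one (exact permutation p = 0.0857). For Fgf23 the differences were -1.06 with DkkMo and -3.71 without, and for Casp9 0.57 and -3.25. Of the genes shown for both comparisons, Arhgap25 was lower under DRB alone and had a higher mean with DkkMo (1.62), and the difference of 4.43 (SE 0.99) had an adjusted p of 0.586 in limma. Since none of these tests of the difference passed the threshold, the effects of DRB with and without DkkMo were not shown to differ for any gene.

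**Figure D5:**
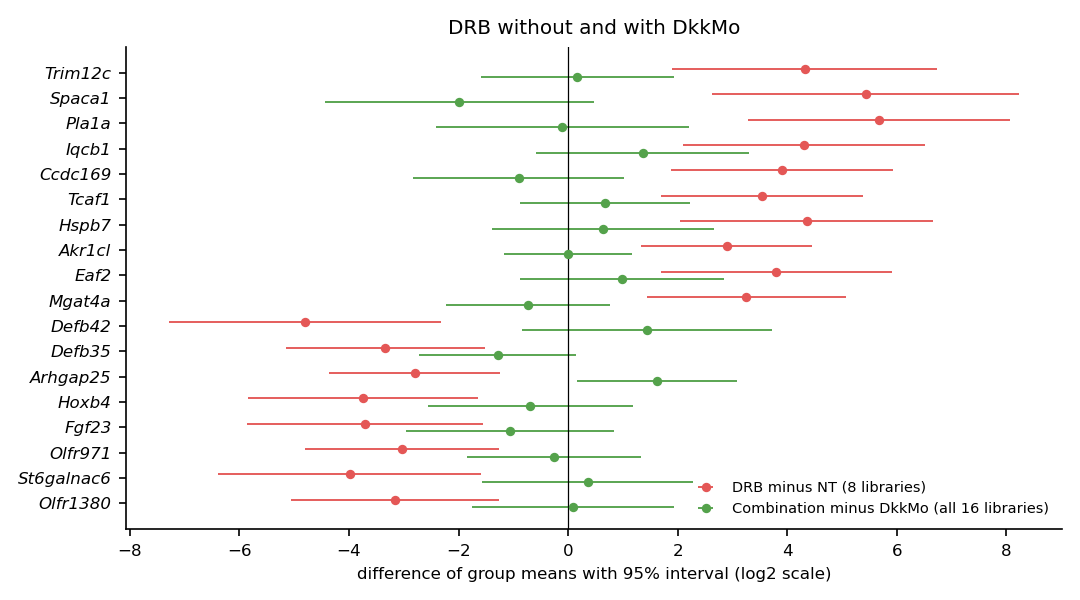
Differences of group means on the log2 scale with 95% intervals for Trim12c, Spaca1 and the 16 genes chosen from DRB against NT (red, 8 libraries), and the same genes in the combination against DkkMo (green, fitted with all 16 tumour libraries). Red intervals exclude 0, as the genes were chosen for it, and green intervals include 0 for each gene but Arhgap25, at 1.62.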

How the data were processed

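RNA sequencing of 16 tumours was deposited by the authors as 1 table of log2 values, of which the 4 DRB and 4 NT libraries were used here, with the other 8 for the second comparison of the drug. The 18 cultures were not used here. Per the labels and the study's methods, reads of 150 bases were aligned to GRCm38 with HISAT2 2.1.0, handled with SAMtools 1.9 (StringTie is also listed), counted with featureCounts of Subread 2.0.0, divided by size factors and variance-stabilised with DESeq2. Strandedness, the handling of reads that fit several genes and the rule by which genes were listed are not given in the sources used here. Human Dkk-1 is not measured on a mouse reference.

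The transformation was reversed from the values, and 96.9% to 99.6% of values per library came out as whole reads within 0.05. The lowest value, 6.23, stands for 0 reads. Log2 differences are differences of group means of the deposited values, which compress those of genes with few reads. The test was that of limma 3.58.1, run in R 4.3.3 (trend of the variance on the mean, Benjamini-Hochberg adjustment) on genes above the lowest value in at least 4 of the 8 libraries, which left out 17 genes. A gene was called at an adjusted p below 0.05 and over 1.5-fold. The fit was repeated after centring each library on its median. All 16 libraries entered the comparison of the combination with DkkMo and the test of the drug's effect with against without DkkMo. Library measures were compared by two-sided exact permutation tests in Python 3.11.15. The scripts were tested on simulated data. Of the genes, 12298 of 12595 matched GENCODE vM21 of GRCm38, 0 of them on chromosome X, Y or the mitochondrial genome, which were not analysed here. P values reflect the spread between 4 mice a group.

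Genes named are, for each list, called members or else the 2 with most reads, the 10 genes with most reads per group, those the study discusses, and genes chosen after their values were seen. The last include Actb, Trim30d, Trim34a, Abcb1a, Chek2, Casp9, Gsr, Timp2, Igfbp4, Igfbp7, Fbn1 and Axin2, beside those described as such in the text. Members and lists were chosen with earlier results of these data known. Alternatives were no filter, genes above the median, all 16 libraries, no trend, robust moderation, centring, quantile normalisation, log2 of the normalised count plus 1 or 10, limma voom, array weights, protein-coding genes, other thresholds and each replicate left out. Chosen after seeing the data were leaving out NT 5 and 7 together, the ribosomal level as a covariate, array weights after centring, centring with each replicate left out, and a total without Trim12c and Trim30a.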

Additional observations from a re-analysis of the deposited data

Results flagged for a closer look

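In 28 of 294 groups of 4 libraries looked at (9.52%), 1 library lay farther from the nearest of the others than Dixon's criterion allows at 4 samples. Chance alone flags about 1 in 20 groups where values are normally distributed. Many measures here were counts or shares that ran over orders of magnitude within a group, so the 9.52% cannot be read against that rate. Measures of 1 group are not independent of one another, and no explanation was tested.

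NT 7 and DRB 14 stood apart in 8 groups each. NT 7 was high on the ribosomal protein list (23008 reads per megaread, RPM), the osteoblast list (23875), the natural killer list (35985) and the mesenchymal list (1247), and in the normalised counts of Aldh18a1 (26465), Cdkn2a (3197), Runx2 (54913) and Nfatc1 (24415). NT 6 had the fewest genes with a read (11494) and the lowest osteoclast list (23.5 RPM), and was high in Col11a1 (41720) and Gprc6a (9421). NT 5 was high in Tcaf1 (50.5).

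Among the treated tumours, DRB 14 was high on the ribosomal (6925 RPM) and osteoblast lists (7343), in Rps24 (206738), Znrf3 (30897), Myh11 (14987) and Mgat4a (271417), and low in Car1 (904) and Dsp (741). DRB 18 was high in Cd28 (40443) and Fgf23 (2.37, from 1 read) and low in Ebf1 (6427). DRB 19 was low in Col9a1 (74.0). DRB 20 had the fewest reads (85.3 M), was high in Hoxb4 (276) and had 0 for Olfr971.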

How the results depend on the processing

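The count of 0 higher and 0 lower genes held in 23 of 25 alternatives. Leaving out 1 replicate in turn gave 0 to 1 higher and 0 lower genes, the 1 being Pla1a without NT 7 (adjusted p = 0.0159 from limma). After centring the range was 0 to 3 higher and 0 lower: 3 without NT 6 (Pla1a, Trim12c and Trim30a), 2 without DRB 18 (Pla1a and Spaca1) and 1 without NT 7 (Pla1a). The test of the drug's effect with and without DkkMo gave 0 to 1 higher and 0 lower, the 1 being Arhgap25 without DkkMo 31 (adjusted p = 0.0450 from limma). With the ribosomal level as a covariate 7 genes were higher (Pla1a, Ccdc169, Spaca1, Hspb7, Trim12c, Trim30a and Mgat4a), and 1 after centring (Pla1a). Array weights after centring gave 5 higher (Pla1a, Spaca1, Hspb7, Trim12c and Trim30a) and 1 lower (Defb42). Without NT 5 and 7 together there were 0 on either scale. Taking Trim12c and Trim30a out of the total turned the difference in reads from 18.5 M to -21.4 M and cut that in the share of the 10 leading genes from 35.7 to 9.30 percentage points. The causes were not tested. Of 2447 values of named genes under the alternatives, 130 had the opposite sign and 58 moved by 1 SD or more, and 11 of 36 lists kept the sign of their median throughout. No paired analysis was possible because the 2 groups share no mouse number. If each read stems from a separate molecule, counting error is small at these depths for all but genes with few reads. That condition was not tested, nor was what underlies the spread between tumours.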
